A study of Rattus norvegicus with 46 samples.

Results

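Loaded and unloaded gastrocnemius muscles were compared in 6 rats that had been paralysed and ventilated for 9 to 14 d, with 1 expression array for each leg. These 12 arrays are all those that the labels place in the 9 to 14 d window, out of 46 arrays from 23 rats. The animals were female Sprague-Dawley rats in an experimental intensive care model, anaesthetised with isoflurane, mechanically ventilated and kept at 37 °C. Paralysis came from α-cobrotoxin, a toxin of snake venom that occupies the acetylcholine receptor of the neuromuscular junction, given intravenously as 100 µg on the first day and then at 250 µg per day. The groups were the left leg, whose ankle a lever moved passively at 13.3 cycles per minute through 12 h of each day, and the opposite leg of the same rats, which was left unloaded. Both legs carried the paralysis, the anaesthetic and the ventilation, and no untreated rats were measured, so every difference below is between 2 paralysed legs. The window pools rats studied for different numbers of days. Rats are numbered here as their unloaded legs are (45, 47, 49, 51, 57 and 59), and the loaded leg is taken to be the next number. This pairing is inferred from the numbers, since no label ties a leg to a rat.

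Muscle that neither contracts nor bears load loses mass, and in intensive care patients and in this model it also loses much of its myosin. Passive movement stretches the fibres and the connective tissue around them without nerve input. Resident fibroblasts sense such strain through matrix adhesions, through release of latent TGF-beta from fibrillin-rich matrix and through the coactivators YAP and TAZ, which act with TEAD factors on genes such as Ccn2. Damaged or unfolded proteins are handled by Hsp90 and Hsp70 with their co-chaperones, whose genes are controlled by heat shock factor 1.

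The arrays carried the RNA of skeletal muscle. The 10 measured genes that mark muscle fibres had a mean level of 11.32 to 13.14 in the loaded legs and 11.26 to 12.98 in the unloaded legs on the log2 scale, against array medians of 6.13 to 6.20. Deviations of both legs of a rat from their group means correlated at 0.72, 0.52, 0.69, 0.18, 0.71 and 0.70 in rats 45, 47, 49, 51, 57 and 59. Rat 51 stood apart. Its loaded leg correlated best with the unloaded leg of rat 49 (r = 0.54) and its unloaded leg with the loaded leg of rat 47 (r = 0.42), so the pairing of rat 51 is the least certain and touches that of rats 47 and 49. Whether legs were exchanged between these rats was not tested. Rats 45, 47, 49 and 51 carry date code 3 in their labels and rats 57 and 59 carry date code 5.

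In the loaded legs at 9 to 14 d, the elastic fibre genes Eln, Fbn1, Fbln2 and Loxl1 and the TGF-beta response and matricellular genes Pmepa1, Ccn2 and Ltbp2 rose, 4 of 18 and 3 of 27 measured members of their lists. The Hsp90 co-chaperones Chordc1 and Stip1, the aldo-keto reductases Akr1c14 and Akr1b8, complement C3 and galectin 3 (Lgals3) fell. Of 9289 genes tested, 25 passed (0.269%), of which 15 were higher in the loaded leg (0.161%) and 10 lower (0.108%). The test was limma's moderated test on log2 values with the rat as a block and Benjamini-Hochberg adjustment, and all adjusted p-values below come from it. Of the 25 genes, 22 differed in 1 direction in all 6 rats, as did 738 of the 9289 genes (3.11% higher and 4.83% lower). The ranges of both groups did not overlap for 4 of the 25, against 0.0969% of all genes. Both counts are fixed in part by the 25 having been called on the same legs. The fit took its spread from all 46 arrays. Fitted on the 12 arrays alone, none of the 25 passed (smallest adjusted p over all genes 0.0698, 1206 genes at an unadjusted p under 0.05), and without the rat as a block only Pmepa1 and Eln passed. Leaving out 1 rat gave 12 calls without rat 45, 92 without rat 47, 6 without rat 49, 8 without rat 51 (4 of them among the 25), 8 without rat 57 and 24 without rat 59. Without rat 51 all 25 genes kept their direction, and the differences of Pmepa1, Eln, Akr1c14 and Fbln2, which still passed, were 1.29, 0.58, -0.81 and 0.85.

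**Figure D1:**
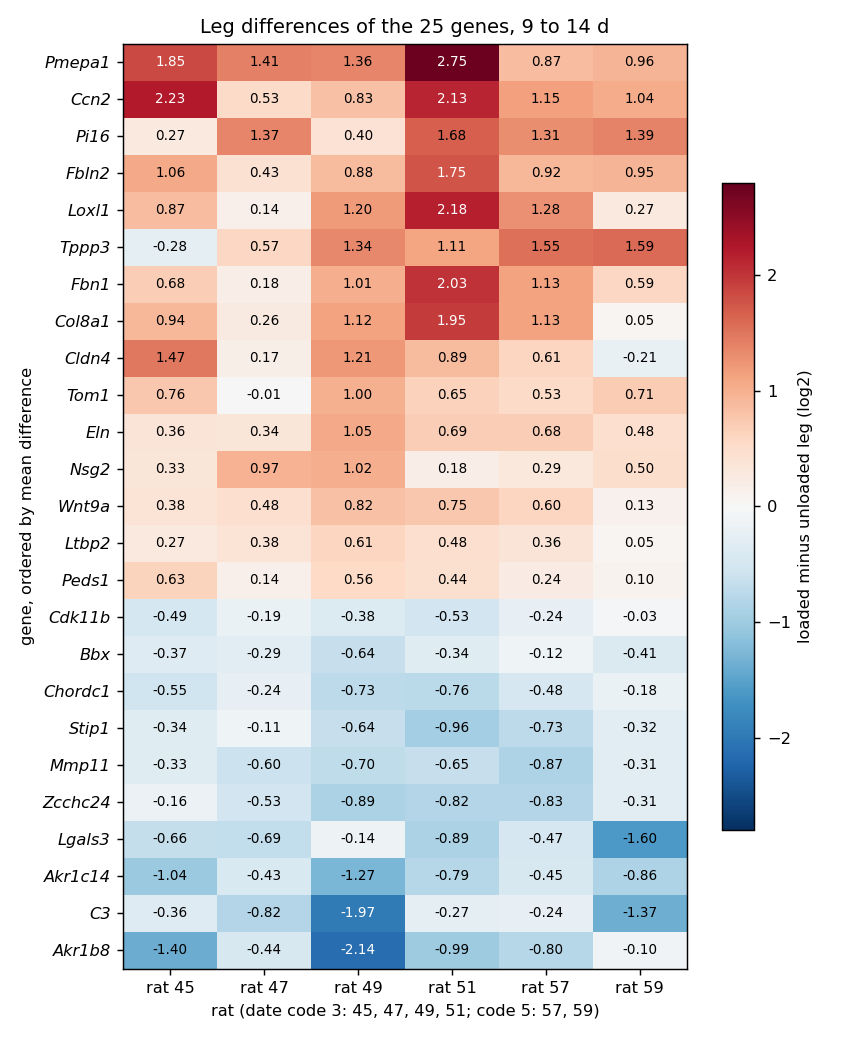
Leg difference (loaded minus unloaded, log2; colour and printed value) of the 25 genes that passed, in each of the 6 rats. The 15 genes at the top were higher in the loaded leg and the 10 at the bottom lower; the 3 cells of opposite sign are Tppp3 in rat 45, Tom1 in rat 47 and Cldn4 in rat 59.

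The gene with the smallest adjusted p was Pmepa1 (chromosome 3), a membrane protein that TGF-beta induces and that restrains Smad signalling. Its log2 level was 8.85, 9.86 and 10.77 (lowest, median and highest) in the loaded legs and 7.89, 8.42 and 8.63 in the unloaded legs. Every loaded leg lay above every unloaded leg. Pmepa1 rose by 1.53 (SE 0.19, 2.90-fold, adjusted p = 0.000227), by 0.87 in rat 57 and by 2.75 in rat 51, which had the smallest and the largest difference. It held when any 1 rat was left out (adjusted p at most 0.00168).

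Ccn2 (chromosome 1), the secreted matricellular protein also called connective tissue growth factor, had log2 levels of 8.04, 9.29 and 10.14 in the loaded legs and 7.51, 7.92 and 8.51 in the unloaded legs. In 5 rats the loaded leg exceeded the highest unloaded leg, and the loaded leg of rat 47 was the exception. Ccn2 rose by 1.32 (SE 0.28, 2.49-fold, adjusted p = 0.0465) and was higher in 6 of 6 rats, but the call ended when any 1 of rats 45, 49, 51, 57 and 59 was left out (highest adjusted p 0.158). Its relative Ccn1 averaged 0.94 higher in all 6 rats without passing (adjusted p = 0.0724). Ltbp2 (chromosome 6), which binds fibrillin microfibrils and is related to the proteins that hold latent TGF-beta, rose by 0.36 (SE 0.08, adjusted p = 0.047), with levels of 6.32, 6.45 and 6.99 in loaded legs and 5.98, 6.08 and 6.40 in unloaded legs.

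These 3 genes were the called members of a list of 27 measured genes of the TGF-beta response and matricellular proteins, none of which passed lower. This list and the gene lists below were drawn up with earlier results of these data known, so their shares are descriptions and no test. The list had 19 members with a mean difference above 0, against 46.8% of all genes, and a median difference of 0.13, against -0.01 over all genes. Its median was above 0 in 5 rats and was -0.15 in rat 47. It was 0.10 without rat 51 and 0.20 without rats 47 and 51. The ligand genes differed in sign: Tgfb2 averaged 0.55 higher (adjusted p = 0.166) and Tgfb3 0.26 lower (adjusted p = 0.276), while Tgif1, a repressor of Smad targets, averaged 0.42 lower (adjusted p = 0.29).

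**Figure D2:**
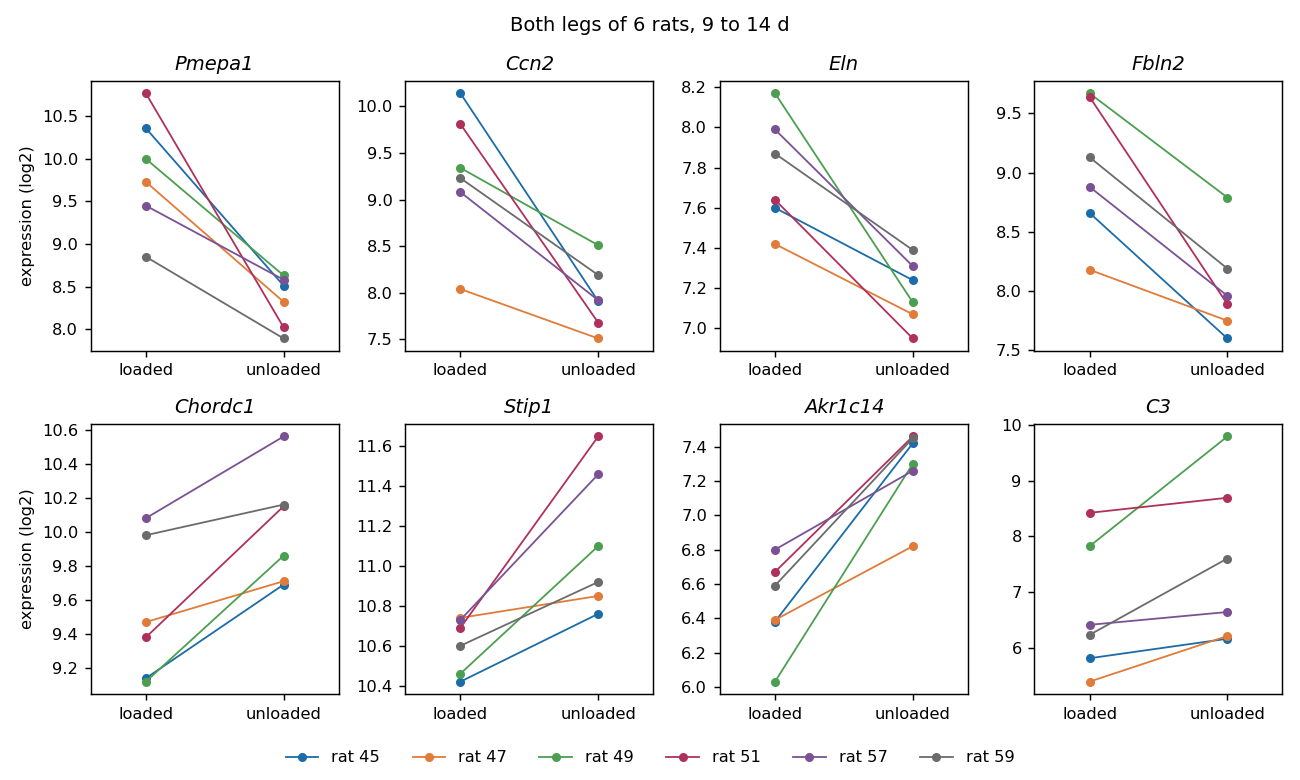
Log2 expression of 8 genes in the loaded leg (left) and the unloaded leg (right) of each of 6 rats, joined by a line per rat; vertical axes differ between panels. All lines fall to the right for Pmepa1, Ccn2, Eln and Fbln2 and climb to the right for Chordc1, Stip1, Akr1c14 and C3, and the 2 groups do not overlap for Pmepa1, Eln, Stip1 and Akr1c14.

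The promoter of Ccn2 is shown because the gene is a textbook target of TEAD factors. The RefSeq table of promoters (GRCr8, 250 bases before to 50 after the start of the gene) gives Ccn2 at chr1:22624565-22624864, minus strand. Capitals mark GGAATG, the core letters bound by TEAD factors, which was searched on both strands and found 3 times, at -166 to -161, -101 to -96 and -92 to -87 with the first base of the gene as 1.
Ccn2: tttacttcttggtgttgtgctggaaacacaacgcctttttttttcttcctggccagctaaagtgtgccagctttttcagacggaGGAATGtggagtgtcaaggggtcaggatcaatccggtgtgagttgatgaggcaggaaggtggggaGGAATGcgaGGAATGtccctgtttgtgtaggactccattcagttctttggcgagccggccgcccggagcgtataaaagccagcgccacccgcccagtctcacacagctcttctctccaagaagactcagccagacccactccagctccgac
GGAATG or CATTCC was present in 14.2% of the 33469 promoters of the table and in 11% of the 7724 tested genes with an entry. It was in 2 of the 18 called genes with an entry (11.1%), Ccn2 and Loxl1. A match is a description of letters and shows no binding.

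Elastic fibres are built from an elastin core on a scaffold of fibrillin microfibrils, joined by fibulins and cross-linked by lysyl oxidases. Elastin itself, Eln (chromosome 12), had log2 levels of 7.42, 7.76 and 8.17 in the loaded legs and 6.95, 7.18 and 7.39 in the unloaded legs. The groups did not overlap, and the highest unloaded leg was 0.03 below the lowest loaded one. Eln rose by 0.60 (SE 0.09, 1.52-fold, adjusted p = 0.0014), by 0.34 in rat 47 and 1.05 in rat 49.

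Fbln2 (chromosome 4), the matrix glycoprotein fibulin 2, had levels of 8.18, 9.01 and 9.67 in loaded legs and 7.60, 7.92 and 8.79 in unloaded legs. The high unloaded value came from rat 49, whose loaded leg was also the highest. Fbln2 rose by 1.00 (SE 0.16, 2.00-fold, adjusted p = 0.00361), and its call, like those of Pmepa1, Eln and Akr1c14 and unlike those of the other 21 genes, held without any 1 rat. Fbn1 (chromosome 3), fibrillin 1, had levels of 7.38, 8.59 and 9.58 in loaded legs and 6.86, 7.49 and 8.57 in unloaded legs and rose by 0.94 (SE 0.20, adjusted p = 0.0465). Loxl1 (chromosome 8), a lysyl oxidase that cross-links elastin, had levels of 7.67, 8.82 and 10.53 in loaded legs and 7.40, 7.66 and 9.32 in unloaded legs and rose by 0.99 (SE 0.19, adjusted p = 0.0258). In Fbn1 and Loxl1 the groups overlapped, and for both rat 47 had the smallest difference (0.18 and 0.14) and rat 51 the largest (2.03 and 2.18).

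The list of elastic fibre genes thus held 4 called members of 18, all higher, with 9 of 18 higher at an unadjusted p under 0.05, against 5.34% of all genes, and 2 lower, against 7.63%. Of the 18, 6 were higher in the loaded leg of all 6 rats, against 3.11% of all genes. Its median difference was 0.15, was above 0 in 4 rats and was -0.04 in rat 47 and -0.08 in rat 59; it was 0.10 without rat 51 and 0.07 without rats 47 and 51. Among members that did not pass, Mfap4 averaged 0.96 higher and Mfap5 0.73 higher, both in 6 of 6 rats (adjusted p = 0.0765 and 0.0615), and Lox, the founding lysyl oxidase, 1.04 higher in 5 of 6 (adjusted p = 0.106). The list was not of 1 sign. Efemp1, also called fibulin 3, averaged 0.52 lower in all 6 rats (adjusted p = 0.12), and Fbln5, fibulin 5, 0.20 lower (adjusted p = 0.373).

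All 23 measured collagen chain genes had a mean difference above 0, against 46.8% of all genes. The smallest was 0.03, and 4 of 23 were higher in all 6 rats, against 3.11% of all genes. The median was 0.15 and was above 0 in each of the 6 rats (0.06 to 0.19). The mean level of the chains was 6.77 to 7.44 in loaded legs and 6.62 to 7.11 in unloaded legs. Array medians were 6.13 to 6.20. Only Col8a1 passed, a chain of the short network-forming collagen VIII (chromosome 11). Its levels were 6.44, 7.51 and 8.47 in loaded legs and 6.18, 6.54 and 7.35 in unloaded legs, and it rose by 0.91 (SE 0.19, 1.87-fold, adjusted p = 0.0385), ranging from 0.05 in rat 59 to 1.95 in rat 51. The main fibrillar collagens of muscle varied widely between rats, with Col1a1 at 8.01, 8.84 and 11.82 in loaded legs and 7.81, 8.52 and 10.49 in unloaded legs. Col1a1 averaged 0.51 higher and Col3a1 0.38 higher, each in 4 of 6 rats (adjusted p = 0.445 and 0.379). Col5a1 averaged 0.30 higher in 5 of 6 rats (adjusted p = 0.137).

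The 17 collagen processing enzymes had no called member and a median of -0.02. The list of small proteoglycans and tendon genes had 8 of 16 members above 0 and 8 below, with a median of 0.02. Aspn, asporin, averaged 1.20 higher in 6 of 6 rats (adjusted p = 0.0825) and Cilp 0.74 higher in 6 of 6 (adjusted p = 0.16). Dcn averaged 0.23 lower in 6 of 6 (adjusted p = 0.299) and Ogn 0.24 lower in 5 of 6 (adjusted p = 0.556). Mmp11 (chromosome 20), the matrix protease stromelysin 3, fell by 0.58 (SE 0.11, adjusted p = 0.0314). Its levels were 6.09, 6.53 and 6.78 in loaded legs and 6.73, 7.12 and 7.39 in unloaded legs, so that 5 of 6 loaded legs lay below all unloaded legs. Mmp11 was the only called member of 20 matrix proteases and inhibitors, whose median was -0.00. The laminin chain gene Lama5 averaged 0.47 higher in all 6 rats (adjusted p = 0.06).

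Other genes that rose encode proteins of fibroblasts, signalling and membrane traffic. Pi16 (chromosome 20), a secreted peptidase inhibitor that marks fibroblasts in many tissues, had levels of 7.18, 7.89 and 8.76 in loaded legs and 6.31, 6.95 and 7.47 in unloaded legs, and rose by 1.07 (SE 0.20, 2.10-fold, adjusted p = 0.0258). Tppp3 (chromosome 19), a tubulin-binding protein that in mouse marks cells of the tendon sheath, rose by 0.98 (SE 0.18, adjusted p = 0.0223), with levels of 9.59, 10.10 and 10.61 in loaded legs and 8.04, 9.15 and 10.15 in unloaded legs. The groups overlapped for both, and Tppp3 was lower in the loaded leg of rat 45, by -0.28.

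Wnt9a (chromosome 10), a secreted Wnt ligand, rose by 0.52 (SE 0.11, adjusted p = 0.0352) in 6 of 6 rats. Tom1 (chromosome 19), an adaptor of endosomal sorting, rose by 0.61 (SE 0.11, adjusted p = 0.0223) in 5 rats, with a difference of -0.01 in rat 47. Peds1 (chromosome 3), the desaturase that completes plasmalogen lipids, rose by 0.35, Nsg2 (chromosome 10), a vesicle protein studied in neurons, rose by 0.55, and Cldn4 (chromosome 12), a tight-junction protein, rose by 0.69 in 5 of 6 rats. The unloaded mean of Cldn4 lay below the array medians, so no fold is given for it.

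Markers of fibroblasts moved in part with these genes. The 13 measured markers had a median difference of 0.29 (0.18 without rat 49), and 9 of 13 had a mean difference above 0, against 46.8% of all genes. By rat, the median was 0.08, -0.17, 0.40, 0.72, 0.41 and -0.27 in rats 45, 47, 49, 51, 57 and 59. The mean level of the markers ran from 8.42 to 9.80 in loaded legs and from 8.39 to 9.56 in unloaded legs. At an unadjusted p under 0.05, 5 of 13 markers were higher, against 5.34% of all genes, and 2 lower, against 7.63%. Mean differences of single markers ran from -0.93 to 1.07. Dcn, a marker that did not pass, averaged 0.23 lower in 6 of 6 rats (adjusted p = 0.299). Col1a1, Col3a1, Mfap5, Dcn and Pi16 stand in that list as well as among the genes above. In whole muscle more cells of a type and more RNA per cell cannot be told apart. The part of the fibroblast markers in the rise of the matrix genes was not tested.

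**Figure D3:**
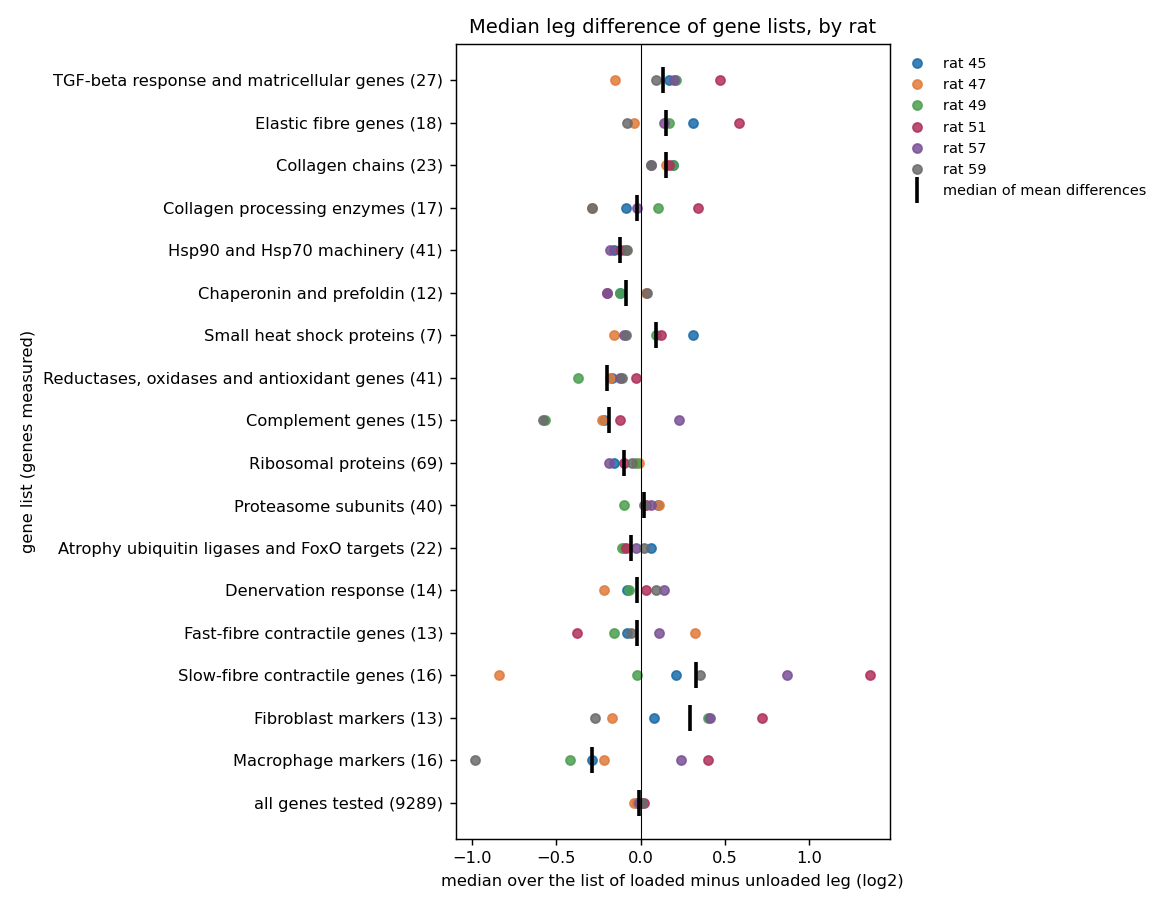
Median leg difference (loaded minus unloaded, log2) of 17 gene lists and of all genes in each rat (coloured points), with the median of the mean differences over 6 rats as a black bar; the number of measured genes stands in brackets. Collagen chains lie above 0 and the Hsp90 and Hsp70 machinery and the reductases below 0 in every rat, while slow-fibre genes spread from -0.84 in rat 47 to 1.36 in rat 51.

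Among the genes that fell, a pair belongs to the Hsp90 cycle. Stip1 (chromosome 1), which bridges Hsp70 and Hsp90 and passes clients between them, had levels of 10.42, 10.65 and 10.74 in the loaded legs and 10.76, 11.01 and 11.65 in the unloaded legs. No loaded leg reached any unloaded leg, although the gap between the groups was narrow. Stip1 fell by 0.52 (SE 0.10, 1.43-fold, adjusted p = 0.0352), from -0.11 in rat 47 to -0.96 in rat 51. Chordc1 (chromosome 8), an Hsp90 co-chaperone, had levels of 9.14, 9.47, 9.12, 9.38, 10.08 and 9.98 in the loaded legs of rats 45, 47, 49, 51, 57 and 59 and of 9.69, 9.71, 9.86, 10.15, 10.56 and 10.16 in their unloaded legs. It fell by 0.49 (SE 0.09, 1.41-fold, adjusted p = 0.0142).

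The loaded legs of rats 57 and 59 reached into the range of the unloaded legs, yet the loaded leg was the lower one for Chordc1 in all 6 rats. Hsp90aa1, the stress-inducible cytosolic Hsp90, was lower in all 6 loaded legs by a mean of 0.67 without passing (adjusted p = 0.0637). Its levels were 9.93, 10.36 and 11.06 in loaded legs and 10.43, 11.15 and 11.75 in unloaded legs. Hsph1, a nucleotide exchange factor of Hsp70, averaged 0.68 lower in 6 of 6 rats (adjusted p = 0.0615), and Hspa8, the constitutive Hsp70, 0.17 lower in 6 of 6 (adjusted p = 0.334).

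The list of 41 measured Hsp90 and Hsp70 genes had 2 called members, both lower (0.108% of all genes were called lower). At an unadjusted p under 0.05, 14 of 41 were lower, against 7.63% of all genes, and 2 higher, against 5.34%. Its median was -0.12 and lay below 0 in each of the 6 rats (-0.08 to -0.18), and 9 of 41 members were lower in all rats, against 4.83% of all genes. The small heat shock proteins, which hold unfolded proteins without using ATP, had no called member in 7, with 5 members above 0 and a median of 0.09. Hspb6 averaged 0.29 higher in 5 of 6 rats (adjusted p = 0.265), Hspb1 0.31 lower in 6 of 6 (adjusted p = 0.284) and Cryab 0.05 lower. The 12 chaperonin and prefoldin genes had no called member, a median of -0.09 and 1 member above 0, against 46.8% of all genes. The 26 genes of the unfolded protein and ATF4 response had no called member and a median of -0.07.

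The promoters of Chordc1 and Hsph1 are shown for the binding sequence of heat shock factor. Capitals mark GAANNTTCNNGAA, searched on both strands, so that TTCNNGAANNTTC also counts; overlapping matches run together. Chordc1 lies at chr8:23650571-23650870 on the plus strand and has 3 overlapping matches between positions 11 and 33. Hsph1 lies at chr12:10427118-10427417 on the plus strand and has 1 match at -36 to -24.
Chordc1: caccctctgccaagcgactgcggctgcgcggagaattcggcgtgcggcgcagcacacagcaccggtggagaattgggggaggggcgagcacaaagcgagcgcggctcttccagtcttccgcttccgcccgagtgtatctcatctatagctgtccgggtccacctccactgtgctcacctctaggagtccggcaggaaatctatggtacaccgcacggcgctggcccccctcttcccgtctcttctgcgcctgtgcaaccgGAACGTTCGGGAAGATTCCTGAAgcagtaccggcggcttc
Hsph1: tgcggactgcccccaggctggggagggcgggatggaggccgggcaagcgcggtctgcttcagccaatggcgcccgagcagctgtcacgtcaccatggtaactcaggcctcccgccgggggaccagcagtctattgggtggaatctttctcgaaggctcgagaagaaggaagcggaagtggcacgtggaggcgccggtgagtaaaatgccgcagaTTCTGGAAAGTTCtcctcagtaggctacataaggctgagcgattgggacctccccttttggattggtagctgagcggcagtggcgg
The motif was present in 0.798% of all 33469 promoters and in 0.44% of the 7724 tested genes with an entry. Of 35 Hsp90 and Hsp70 genes with an entry, 6 held it (17.1%), namely Chordc1, Hsph1, Hspa8, Hspd1, Hspe1 and Dnaja1. The other called genes with an entry, Stip1 among them, had no match in this window.

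Akr1c14 (chromosome 17), an aldo-keto reductase that reduces 3-ketosteroids in rat, had levels of 6.03, 6.49 and 6.80 in the loaded legs and 6.82, 7.36 and 7.46 in the unloaded legs. All loaded legs lay below all unloaded legs, by a margin of 0.01 at the closest pair. It fell by 0.81 (SE 0.12, 1.75-fold, adjusted p = 0.0014), from -0.43 in rat 47 to -1.27 in rat 49. Rat has several closely related Akr1c genes, and a probe set that also detects a relative could not be recognised here.

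Akr1b8 (chromosome 4), an aldo-keto reductase that reduces aldehydes, varied widely between rats. Its levels were 5.22, 6.98 and 9.32 in the loaded legs and 5.66, 8.52 and 10.31 in the unloaded legs. The ranges overlapped almost wholly, but the loaded leg was the lower one in all 6 rats, by 0.10 in rat 59 and by 2.14 in rat 49, and Akr1b8 fell by 0.98 (SE 0.21, adjusted p = 0.0416). Both genes belong to a list of 41 measured reductases, oxidases and antioxidant genes. In that list 36 of 41 mean differences were below 0, against 53.2% of all genes, the median was -0.20 (-0.11 without rat 49), and it was below 0 in each rat. The list was drawn up with earlier results of these data known, so its share is a description and no test. Members that did not pass were Gstm2, a glutathione S-transferase, which averaged 0.53 lower in 6 of 6 rats (adjusted p = 0.06), and Cyp2e1, a cytochrome P450, 0.87 lower in 6 of 6 (adjusted p = 0.06), whose loaded mean lay below the array medians.

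C3 (chromosome 9), the central protein of the complement cascade, had levels of 5.39, 6.32 and 8.42 in the loaded legs and 6.16, 7.12 and 9.79 in the unloaded legs. Rats 49 and 51 were high in both legs, so the groups overlapped widely. C3 fell by 0.84 (SE 0.18, 1.79-fold, adjusted p = 0.047), and was lower in 6 of 6 rats, by 0.24 in rat 57 and by 1.97 in rat 49. Of 15 measured complement genes, 14 had a mean difference below 0, against 53.2% of all genes, and C3 was the only one called. The median of the list was -0.19 and ran from -0.58 in rat 59 to 0.23 in rat 57. Of the 15, 2 were lower in all 6 rats, against 4.83% of all genes. The inhibitor Serping1 averaged 0.48 lower in 6 of 6 rats (adjusted p = 0.098).

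Lgals3 (chromosome 15), galectin 3, a sugar-binding protein abundant in macrophages, had levels of 9.25, 9.66 and 11.43 in loaded legs and 9.73, 10.70 and 11.57 in unloaded legs. It fell by 0.74 (SE 0.15, 1.68-fold, adjusted p = 0.0352) and was lower in all rats, by 0.14 in rat 49 and 1.60 in rat 59. Markers of macrophages were mostly lower too: of the 16 measured, 13 had a mean difference below 0, against 53.2% of all genes. Their median was -0.29 (-0.39 without rat 51 and -0.45 without rats 47 and 51), and Lgals3 alone passed. By rat the median was -0.29, -0.22, -0.42, 0.40, 0.24 and -0.98 in rats 45, 47, 49, 51, 57 and 59. The mean level of the markers ran from 7.79 to 9.67 in loaded legs and from 8.10 to 10.08 in unloaded legs. Lgals3 is itself among these markers, and the part of macrophages in the fall of C3 and Lgals3 was not tested.

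Cxcl12, a chemokine of stromal cells, averaged 0.48 lower in 6 of 6 rats without passing (adjusted p = 0.0537), and Clu, the secreted chaperone clusterin, 1.08 lower in 6 of 6 (adjusted p = 0.06). Among the other genes that fell were Zcchc24 (chromosome 16), by 0.59 (SE 0.13, adjusted p = 0.0465), Bbx (chromosome 11), a transcription factor with an HMG box, by 0.36 (SE 0.07, adjusted p = 0.0352), and Cdk11b (chromosome 5), a kinase that acts in transcription and splicing, by 0.31 (SE 0.06, adjusted p = 0.0386). Each was lower in all 6 loaded legs.

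Genes of muscle wasting did not pass. The ubiquitin ligase Fbxo32 averaged 0.23 lower (adjusted p = 0.328), and Trim63, also called MuRF1, differed by 0.01 (adjusted p = 0.989). Trim63 had levels of 10.85, 11.96 and 12.50 in loaded legs and 10.62, 11.83 and 12.67 in unloaded legs, and the groups overlapped almost completely. The 22 genes of this list had no called member and a median of -0.06, and the 40 proteasome genes had none and a median of 0.02. Pdk4, which inhibits pyruvate dehydrogenase, averaged 0.36 lower in 5 of 6 rats (adjusted p = 0.0738).

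None of 14 measured denervation genes passed, and their median was -0.02. Myog, the transcription factor myogenin, averaged 0.25 lower in 6 of 6 rats (adjusted p = 0.596), and Chrna1, the acetylcholine receptor subunit that the toxin binds, 0.03 lower (adjusted p = 0.983). Of the growth regulators, Mstn (myostatin) averaged 0.09 higher (adjusted p = 0.959), Igf1 0.13 lower (adjusted p = 0.823) and its receptor Igf1r 0.20 lower in 6 of 6 rats (adjusted p = 0.312). The 69 ribosomal protein genes had no called member, but 65 of them had a mean difference below 0, against 53.2% of all genes. Their median was -0.10. Rps25 averaged 0.25 lower (adjusted p = 0.14) and Rpl34 0.21 lower (adjusted p = 0.17). Ribosomal genes have many near-identical copies, so single values are uncertain.

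Of 2 cold-inducible genes and 15 stretch-responsive genes none passed. The stretch-responsive list had 14 of 15 members above 0, against 46.8% of all genes, with a median of 0.19. Its median was above 0 in 4 rats and was -0.24 in rat 47 and -0.10 in rat 59. Rbm3, which binds RNA and is induced by mild cooling, had levels of 9.20, 9.80 and 11.37 in loaded legs and 7.71, 8.94 and 9.58 in unloaded legs. It averaged 1.32 higher in 6 of 6 rats (SE 0.33, adjusted p = 0.0724), from 0.09 in rat 47 to 2.50 in rat 51, and its relative Cirbp 0.63 higher in 5 of 6 (adjusted p = 0.0776). Ttn, the titin spring of the sarcomere, averaged 0.27 higher in 6 of 6 (adjusted p = 0.0776), and Sorbs3, an adaptor of cell adhesions, 0.66 lower in 6 of 6 (adjusted p = 0.0765). Ankrd1, a titin-binding stretch-response gene, averaged 0.67 higher in 3 of 6 rats (adjusted p = 0.545), and the monocarboxylate transporter Slc16a6 0.86 higher in 5 of 6 (adjusted p = 0.0765). Dbp, a clock output gene, averaged 0.18 lower in 6 of 6 (adjusted p = 0.464).

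Slow-fibre genes differed by several log2 units between the legs of single rats, in opposite directions. Myh7, the slow myosin heavy chain, was at 6.44 in the loaded leg of rat 47 and at 9.98 in its unloaded leg. In rat 51 it was at 10.83 in the loaded leg and at 5.71 in the unloaded leg. Tnnt1, slow troponin T, was at 6.02 and Myl3, the slow ventricular light chain, at 5.80 in the loaded leg of rat 47, against 10.90 and 10.42 in its unloaded leg. In rat 51 they stood at 11.36 and 12.04 in the loaded leg, against 5.67 and 4.96 in the unloaded leg. For these 3 genes those 2 legs, 1 of them loaded and 1 unloaded, had the lowest levels of the 12, and neither Myh7 (mean difference 1.07, SE 0.91, adjusted p = 0.658) nor the other 15 measured slow-fibre genes passed.

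**Figure D4:**
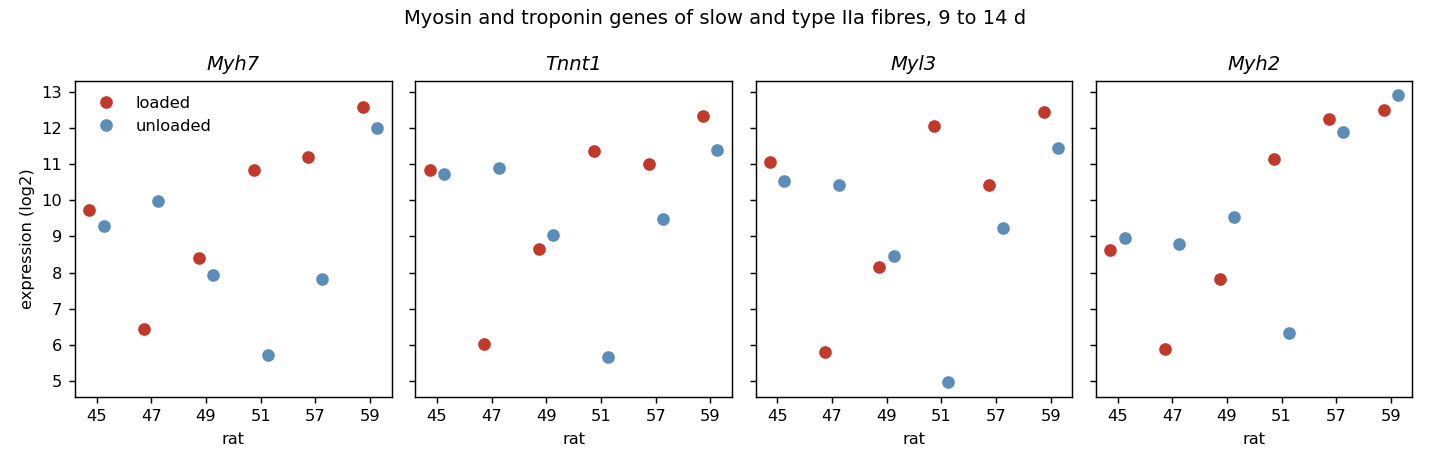
Log2 expression of Myh7, Tnnt1, Myl3 and Myh2 in the loaded (red, left of each pair) and the unloaded leg (blue) of each of 6 rats. The loaded leg of rat 47 lies at 6.44 for Myh7 against 9.98 unloaded, and the loaded leg of rat 51 at 10.83 against 5.71 unloaded.

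The type IIa myosin gene Myh2 followed the same 2 legs, at 5.88 in the loaded leg of rat 47 against 8.78 unloaded, and at 11.13 in the loaded leg of rat 51 against 6.32 unloaded. The fast myosins Myh1 and Myh4, which dominate this muscle, had mean differences of 0.11 and -0.07 (adjusted p = 0.706 and 0.943), and embryonic Myh3 1.16 (adjusted p = 0.249). Among the genes that rose, Fbln2, Fbn1 and Loxl1 had their smallest leg difference in rat 47 and their largest in rat 51, as did Rbm3. Myh7, Tnnt1, Myl3 and the median of the slow-fibre list had their lowest and highest difference in the same 2 rats, while other members of the list did not all follow that order. Their part in these differences was not tested. Without both rats, which was tried after the values were seen, Pmepa1, Eln, Akr1c14, Fbln2 and Tom1 still passed among 7 genes called, and Loxl1 (0.91, adjusted p = 0.0616), Fbn1 (0.85, adjusted p = 0.11) and Ccn2 (1.31, adjusted p = 0.11) did not.

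The leg differences were set against those of the shorter windows, 13 rats at 6 h to 4 d and 4 rats at 5 to 8 d, where the same fit called no gene in either window (1075 genes, 11.6%, and 644 genes, 6.93%, at an unadjusted p under 0.05). The comparison asks whether the leg difference changed with duration. All 25 genes had a larger mean difference at 9 to 14 d than in both shorter windows, which is fixed in part by their having been called at 9 to 14 d. Of the 25, 23 had the same sign at 6 h to 4 d and 24 at 5 to 8 d.

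No gene passed when the leg effects themselves were compared, either with 6 h to 4 d (717 genes, 7.72%, at an unadjusted p under 0.05) or with 5 to 8 d (248 genes, 2.67%). Pmepa1 and Eln came closest. The leg difference of Pmepa1 was 0.25 at 6 h to 4 d, 0.18 at 5 to 8 d and 1.53 at 9 to 14 d, a gap between the longest and the shortest window of 1.29 (SE 0.23, adjusted p = 0.0664). Eln differed by 0.02, 0.18 and 0.60 in the same order, with a gap of 0.58 (SE 0.11, adjusted p = 0.0664). Ccn2 stood at 0.75, 0.65 and 1.32, and its gap from 6 h to 4 d had an unadjusted p of 0.112. Among the 25 genes, chosen for their difference at 9 to 14 d, the gap had an unadjusted p under 0.05 in 24 against 6 h to 4 d and in 10 against 5 to 8 d.

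**Figure D5:**
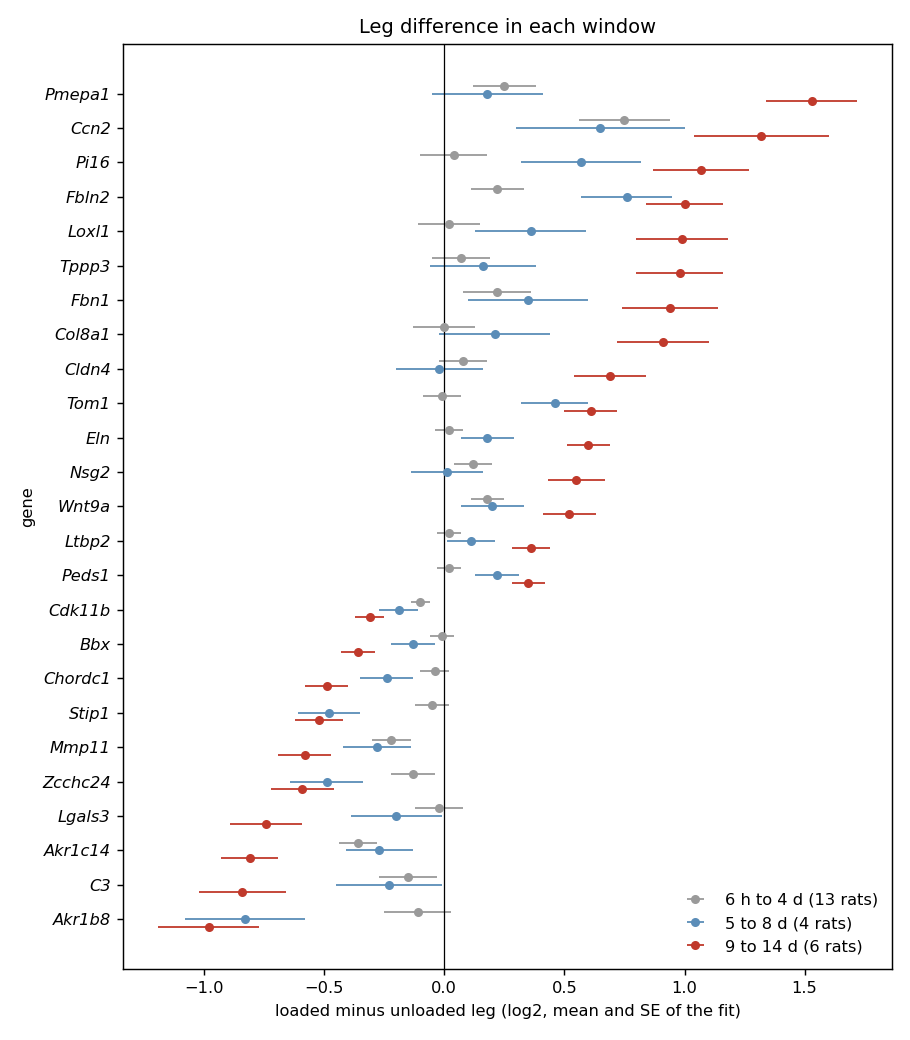
Leg difference (loaded minus unloaded, log2) of the 25 genes at 6 h to 4 d (grey), 5 to 8 d (blue) and 9 to 14 d (red); points are means and bars the SE of the fit. Pmepa1 stands at 0.25, 0.18 and 1.53 and Stip1 at -0.05, -0.48 and -0.52 in the 3 windows.

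The windows hold different rats. Stip1, Akr1b8, Zcchc24, Fbln2 and Tom1 had differences at 5 to 8 d that were the largest share, among the 25 genes, of those at 9 to 14 d, though none passed at 5 to 8 d (adjusted p = 0.204 to 0.328). Their values at 6 h to 4 d, 5 to 8 d and 9 to 14 d were -0.05, -0.48 and -0.52 for Stip1, -0.11, -0.83 and -0.98 for Akr1b8, -0.13, -0.49 and -0.59 for Zcchc24, 0.22, 0.76 and 1.00 for Fbln2, and -0.01, 0.46 and 0.61 for Tom1. Prrt4, a membrane protein, had differences of 0.15, 1.24 and 1.28 in the same order, and the last was seen in 6 of 6 rats without passing (adjusted p = 0.0538). Next in rank for the gap from 6 h to 4 d were Wdr62 (0.66), Tom1 (0.61) and Klhl25 (-0.85), each with an adjusted p of 0.271. Against 5 to 8 d, Pmepa1 was followed by Vldlr (0.80), Abcb1b (-1.12), Aagab (0.72) and Nthl1 (0.35), all with an adjusted p of 1.

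Date codes held both legs of each rat and so did not separate the groups. All 25 genes had the same sign in the 2 rats of code 5 and the 4 rats of code 3. The leg difference of Pmepa1 was 0.91 in code 5 and 1.84 in code 3, that of Eln 0.58 and 0.61, and that of Akr1c14 -0.66 and -0.88. With code 5 alone no gene passed (390 genes at an unadjusted p under 0.05), and with code 3 alone 15 did, 9 of them among the 25. No gene passed for the difference between codes (310 genes, 3.34%, at an unadjusted p under 0.05), and Tmem184a came closest, at 0.54 in code 5 and -0.52 in code 3 (adjusted p = 0.078). Tmem144, Wdr12, Aldh1a1 and Pcp4 were next, with gaps of code 5 minus code 3 of -1.05, -0.79, 1.54 and 1.13.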

How the data were processed

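Total RNA of the proximal gastrocnemius was measured on single-colour Affymetrix arrays. The deposited values are on the log2 scale, with 1 value for a probe set on each array, and the authors made them with RMA (background correction, quantile normalisation and probe summary; version not given in the sources used here), per the submitters' processing notes. Values ran from 1.92 to 14.38. Quantile normalisation would partly remove a shift of most transcripts in 1 direction, and without counts or detection calls the number of arrays limits the precision.

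Of 26208 probe sets, the platform annotation lists 15411, of which 15088 have 1 symbol, 323 several and 10797 probe sets are unlisted; 15058 symbols were matched to RefSeq by gene ID. Probe sets above their own array's median on at least 4 of 46 arrays were kept (14834), and the brightest by mean represented each gene (9289 genes tested). Differences were fitted with limma 3.58.1 in R 4.3.3 (lmFit, eBayes, two-sided, adjusted p under 0.05) over all 46 arrays with rat as a fixed block and a leg term per window, which leaves 20 residual degrees of freedom. The script was tested on simulated data. P-values rest on the spread of the leg differences around their window means, pooled over all 23 rats, and not on that of the 6 rats alone.

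Legs were paired by number: each odd unloaded number has the next number as a loaded leg in its window and date code. The 6 leg correlations ran from 0.18 to 0.72. Those of rat 51 do not settle its pairing, since its legs correlated better with legs of rats 47 (r = 0.42) and 49 (r = 0.54). Named genes are all that passed and, chosen from a wider rule, extremes of the lists described, a set of fixed genes, the 5 genes of smallest p in each comparison of leg effects and the 10 largest differences of 1 sign that missed the threshold. Mfap5, Lox, Tgfb2, Hsph1, Tnnt1, Myl3, Hbb and Alas2, and the other promoters holding a motif, were named after their values were seen. Members and lists were chosen with earlier results of these data known. Alternatives were other blocks, weights, scalings, filters, date codes and left-out rats.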

Additional observations from a re-analysis of the deposited data

Results flagged for a closer look

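One value stood far from the others of its group by Dixon's test of a single extreme value. The median leg difference of the 2 measured erythrocyte markers was 1.09 in rat 57, where the loaded leg was higher, while the other rats ranged from -0.79 to -0.13. The list rests on Hbb, a haemoglobin chain, with a leg difference of 1.31 in rat 57, and Alas2, the haem synthesis enzyme of red cells, with 0.86. The test was made on 25 genes and 45 lists, and chance alone marks about 1 in 20.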

How the results depend on the processing

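The 25 genes kept their direction under every alternative tried, which is fixed in part by their having been called on the same arrays. The count of genes called was 2 with no replicate block, 0 in the window's arrays alone with the replicate block, 81 with the rat as a random replicate block (19 of the 25 shared), 122 with array quality weights (all 25 shared), 0 with date code 5 only, 15 with date code 3 only and 7 without rats 47 and 51 together, an alternative chosen after seeing the data. Leaving out 1 rat gave 6 to 92 genes: 12 without rat 45, 92 without 47, 6 without 49, 8 without 51, 8 without 57 and 24 without 59. The cause of these shifts was not tested; fewer rats also leave fewer arrays. Centring the arrays on their medians also called 25 genes, 22 of them shared with the 25 above. Of those called after centring, 12 were higher and 13 lower, against 15 and 10. For the gap from 6 h to 4 d the count of 0 became 4 with the random replicate block, 1 with array weights and 1 with date code 3 only, and 0 to 3 when 1 rat was left out; for the gap from 5 to 8 d it became 5 with array weights. Among genes that did not pass, the sign turned with date code 5 only for Col3a1 (-0.02), Hspb6 (-0.07), Trim63 (-0.08), Mstn (-0.29), Ankrd1 (-0.18), Myh4 (0.17), Hbb (0.47), Alas2 (0.49), Tmem184a (0.54), Tmem144 (-0.52) and Aldh1a1 (0.59), with date code 3 only for Wdr12 (0.09) and Pcp4 (-0.31), with array weights for Myh4 (0.00) and Alas2 (0.02), with centring for Trim63 (-0.00), and without rats 47 and 51 for Myh4 (0.05) and Alas2 (0.02). Leaving out 1 rat turned the sign within the ranges -0.03 to 0.07 for Trim63, -0.12 to 0.01 for Chrna1, -0.27 to 0.47 for Mstn, -0.25 to 0.01 for Igf1, -0.99 to 0.55 for Myh2, -0.17 to 0.12 for Myh4, -0.54 to 1.58 for Tnnt1, -0.45 to 1.90 for Myl3, -0.27 to 0.05 for Alas2 and -0.13 to 0.22 for Pcp4. List medians kept their sign under cyclic loess and centring for the lists whose median lay at least 0.05 from 0.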

Other observations

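Interferon response and antigen presentation genes form a list that was put together after the values were seen, so it carries no test. All 47 measured members had a mean difference below 0, against 53.2% of all genes, with a median of -0.47, and none passed. By rat the median was -0.36, -0.40, -1.45, 0.11, -0.04 and -0.55 in rats 45, 47, 49, 51, 57 and 59, so it was above 0 in rat 51 and close to 0 in rat 57. Siglec1, a macrophage receptor induced by interferon, averaged 0.75 lower in 6 of 6 rats (limma adjusted p = 0.0537), with levels of 6.01, 7.09 and 7.95 in loaded legs and 6.60, 7.58 and 9.79 in unloaded legs. The immunoproteasome subunits Psmb9 and Psmb8 averaged 0.82 and 0.62 lower, each in 5 of 6 rats (adjusted p = 0.0637 and 0.0776). Without rat 49 their differences were -0.51 and -0.33, and the median of the list was -0.24. Ccl5, a chemokine, averaged 0.62 lower (adjusted p = 0.0615), and Usp18, an interferon-induced protease, 0.97 lower in 6 of 6 rats (adjusted p = 0.0973). Usp18 differed most in rat 49, by -3.01, and its mean difference was -0.56 without rat 49. In rat 57 it differed by -0.00, with both legs at 6.13. The loaded mean of Usp18 lay below the array medians. The median of the same list was -0.02 at 6 h to 4 d and 0.00 at 5 to 8 d; the difference between windows was not tested for a list.

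Glutathione S-transferases, likewise grouped after the values were seen, had a median of -0.27 over 16 genes, with none called. Of the 16, 12 were below 0, against 53.2% of all genes. Gstm3 averaged 0.50 lower in 6 of 6 rats (adjusted p = 0.0526), and its loaded mean lay below the array medians. Pla2g7, which degrades platelet-activating factor, averaged 0.96 lower (adjusted p = 0.164) and Prrg4, a membrane protein, 0.88 higher (adjusted p = 0.0926), both in the same direction in 6 of 6 rats. Markers of mast cells were below 0 in 4 of 4 measured genes (median -0.41) and those of adipocytes in 7 of 8 (median -0.36), against 53.2% of all genes. None of these markers passed.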
